A study of Mus musculus with 15 samples.

Results

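This account covers 8 genes of the mouse ribosomal protein paralog families, of the 21727 transcripts counted in the series. The members were taken by symbol, namely *Rps27*, *Rps27l*, *Rps27rt*, *Rpl22*, *Rpl22l1*, *Rpl7l1*, *Rpl36al* and *Rpl39l*, and each was set beside its partner, with *Rpl7*, *Rpl36a* and *Rpl39* added as partners that are not members. Ribosome profiling, the sequencing of the mRNA fragments that ribosomes protect from RNase (ribosome-protected fragments, RPFs), was done on E14Tg2a.4 cells, a line of mouse embryonic stem cells (mESCs) kept in serum and LIF. In the *Rps27-FLAG* line (eS27-FLAG in the labels) a 3xFLAG epitope stood at the C terminus of endogenous Rps27, in the *Rps27l-FLAG* line it stood at the C terminus of Rps27l, with all alleles tagged in both lines, and the WT line carried no tag. Each line was represented by 3 clones, and every replicate is 1 clone. Total RPFs were sequenced from all 9 clones, and IP RPFs, from ribosomes pulled down with anti-FLAG, from the 6 tagged clones, which gives 15 libraries in 5 groups of 3. No IP RPF library of untagged cells was analysed here, so that the background of the pulldown is not measured. As these are bulk samples, fewer cells that express a gene and less of its RNA per cell cannot be told apart.

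Ribosomal proteins are the constant protein parts of the small and the large ribosomal subunit, and most are made from a single active gene. A few have a second gene whose protein can take the same place in the ribosome, and such pairs often differ by tissue, with some copies known from testis, muscle or stressed cells. Rps27 and Rps27l (eS27 and eS27L) occupy the same site on the small subunit, and *Rps27l* is a known target of p53, while *Rps27rt* is a retrotransposed copy of *Rps27*. Rpl22 and Rpl22l1 (eL22) lie on the large subunit, and Rpl22 protein is known to bind RNA of *Rpl22l1* and to hold its level down. Rpl39l is a copy of Rpl39, a small protein of the nascent peptide exit tunnel, and is best known from male germ cells. Rpl36al is a copy of Rpl36a (eL42), and Rpl7l1 is a more distant relative of Rpl7 (uL30).

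What the counts can say about a paralog depends on its sequence, because the authors kept only reads that aligned to 1 transcript. The coding sequences (CDSs) of GENCODE M21 on GRCm38 are shown for the eS27 family, since they decide which gene of the family was measured. Capitals mark the bases at which *Rps27* and *Rps27l* differ.
Rps27: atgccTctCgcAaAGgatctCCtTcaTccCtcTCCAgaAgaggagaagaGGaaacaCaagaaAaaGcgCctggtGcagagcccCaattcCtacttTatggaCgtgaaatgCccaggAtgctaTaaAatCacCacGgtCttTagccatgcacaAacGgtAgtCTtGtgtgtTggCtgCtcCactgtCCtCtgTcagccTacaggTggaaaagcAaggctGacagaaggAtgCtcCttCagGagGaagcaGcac
Rps27l: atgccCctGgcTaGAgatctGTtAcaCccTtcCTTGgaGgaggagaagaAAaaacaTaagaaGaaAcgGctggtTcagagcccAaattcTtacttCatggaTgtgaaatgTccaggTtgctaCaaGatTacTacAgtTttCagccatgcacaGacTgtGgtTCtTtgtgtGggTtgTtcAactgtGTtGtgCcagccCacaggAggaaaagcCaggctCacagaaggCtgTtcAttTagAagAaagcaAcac
*Rps27* has 4 exons and lies at chr3:90212671-90213651 on the minus strand. *Rps27l* also has 4 exons and lies at chr9:66946086-66949512 on the plus strand. *Rps27rt* lies at chr9:114982366-114982739 on the minus strand, in 1 exon. The CDS of *Rps27rt* equals that of *Rps27* at all 252 bases, so the *Rps27* line above is also its sequence. *Rps27* and *Rps27l* differ at 60 of 252 bases (76.2% identity), and 50 of the 53 codons that differ are synonymous, so that the proteins differ at 3 of 84 residues.

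The first transcribed bases in RefSeq (GRCm38.p6) give one more likeness between *Rps27* and its copy. Capitals mark the unbroken run of C and T at the start.
Rps27: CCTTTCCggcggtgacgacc
Rps27rt: CTTTCCggcggtgacgacct
Many ribosomal protein mRNAs open with a C and a run of pyrimidines, the terminal oligopyrimidine tract through which mTOR regulates their translation. Of the 11 members and partners, 10 have a promoter record, *Rpl7* being the one without, and of these *Rps27* and *Rps27rt* alone had a start with C followed by at least 4 bases of C or T in these promoter records, with runs of 7 and 6 bases, on the strand of the gene. Such a start was found in 823 of 32851 promoter records (2.51%). The annotated starts are single positions, so that the absence of the run in the others says only that it is not at the annotated base.

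The coding sequences of the smallest pair, *Rpl39* and *Rpl39l*, and the first 150 bases of *Rpl36a* and *Rpl36al* show how far the closest pairs of the large subunit differ. Capitals mark the bases that differ within a pair.
Rpl39: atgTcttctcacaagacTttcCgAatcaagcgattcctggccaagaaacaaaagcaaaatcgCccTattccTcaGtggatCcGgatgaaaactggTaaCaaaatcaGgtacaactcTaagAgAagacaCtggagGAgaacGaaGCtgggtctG
Rpl39l: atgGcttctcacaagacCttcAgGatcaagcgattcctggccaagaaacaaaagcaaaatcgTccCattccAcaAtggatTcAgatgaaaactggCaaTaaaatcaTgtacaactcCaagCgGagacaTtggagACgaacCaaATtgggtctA
Rpl36a, bases 1 to 150: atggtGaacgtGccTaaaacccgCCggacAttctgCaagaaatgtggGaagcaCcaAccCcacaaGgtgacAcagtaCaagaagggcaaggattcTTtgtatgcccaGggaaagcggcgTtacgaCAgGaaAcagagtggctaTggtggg
Rpl36al, bases 1 to 150: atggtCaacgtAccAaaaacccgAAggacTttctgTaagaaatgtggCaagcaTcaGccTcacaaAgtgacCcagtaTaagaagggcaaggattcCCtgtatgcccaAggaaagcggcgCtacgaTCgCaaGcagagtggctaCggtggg
*Rpl39* is at chrX:37082520-37085402 on the minus strand and *Rpl39l* at chr16:10170228-10174911 on the plus strand, with its whole CDS in 1 exon. They differ at 23 of 153 bases and 3 of 51 residues. *Rpl36a* (chrX:134585654-134588056, plus strand) and *Rpl36al* (chr12:69182741-69184083, minus strand, CDS in 1 exon) differ at 39 of 318 bases, and the proteins are identical over 106 residues. *Rpl22* (chr4:152325867-152334071, plus strand) and *Rpl22l1* (chr3:28805436-28807415, plus strand) are further apart, with 70.3% of aligned residues identical. *Rpl7* (chr1:16101295-16104662, minus strand) and *Rpl7l1* (chr17:46773907-46782656, minus strand) share 40.7%.

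To see how much of each CDS can be counted, every window of 28 bases whose A site (15 bases from its start) falls in the counted part of the CDS was searched in all other transcripts. The counted part leaves out the first 15 and last 5 codons. None of the 192 windows of *Rps27* or of *Rps27rt* was unique, as each has its exact copy in the other gene. All 192 windows of *Rps27l* were unique, and none came within 2 mismatches of another transcript. All windows were unique in *Rpl22*, *Rpl22l1*, *Rpl36al* and *Rpl7*. Of these, 93 of 258 in *Rpl36al*, 16 of 324 in *Rpl22* and 14 of 306 in *Rpl22l1* came within 2 mismatches of another transcript. *Rpl39* and *Rpl39l* shared 5 of 93 windows with each other (94.6% unique), and *Rpl7l1* shared 85 of 678 with 1700084J12Rik (87.5% unique). Of the 258 windows of *Rpl36a* only 58 (22.5%) were unique, since 184 stand in Rpl36a-ps1 and 74 in Gm6525.

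**Figure D1:**
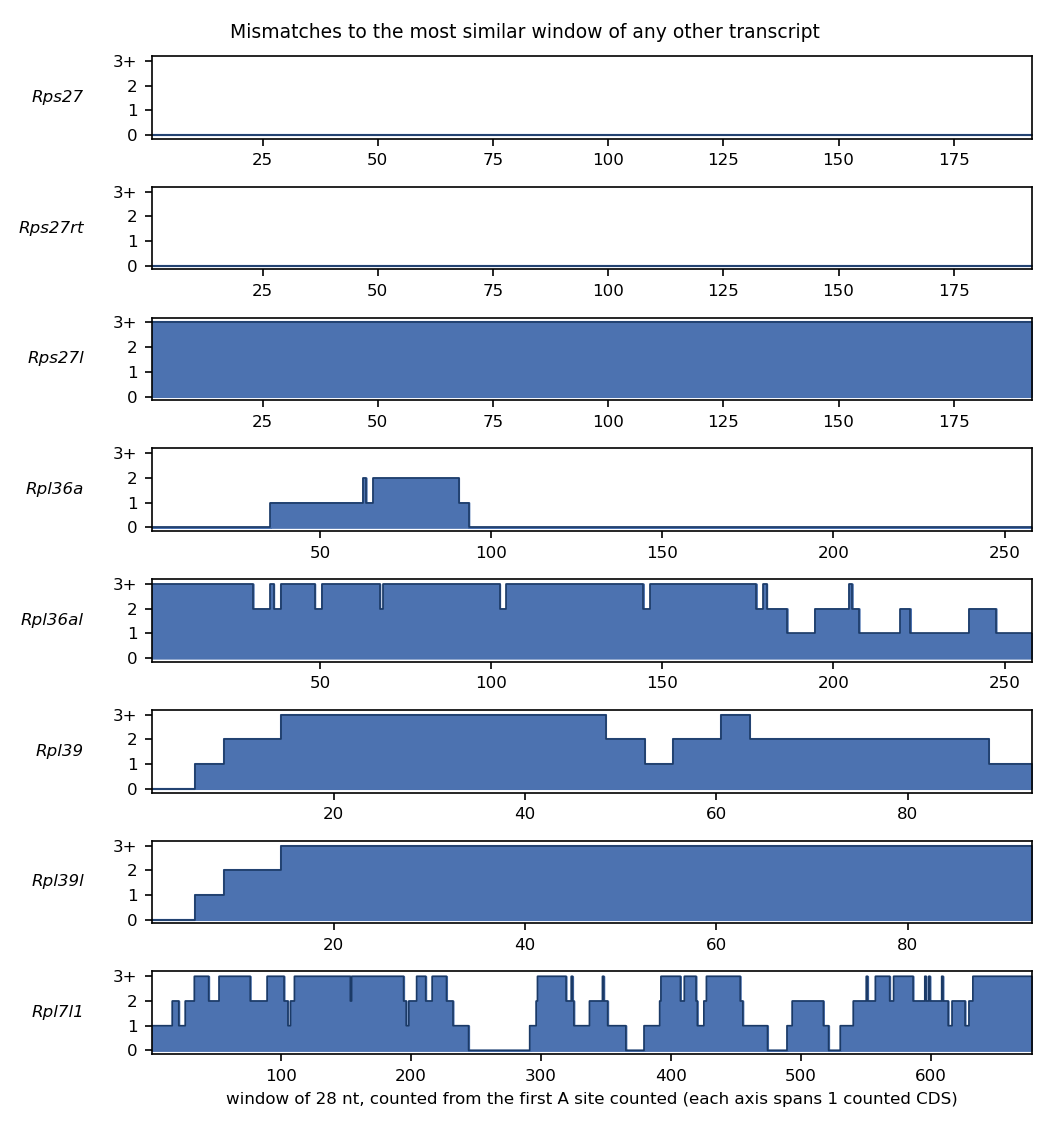
For each gene, the number of mismatches (0 to 3 or more, vertical axis) between each 28-base window of the counted CDS (horizontal axis, window number) and its most similar window in any other transcript. *Rps27* and *Rps27rt* lie at 0 over all 192 windows, *Rps27l* at 3 or more over all 192, and 58 of the 258 windows of *Rpl36a* lie above 0.

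The deposited counts follow these sequences in the eS27 family. *Rps27* had 0 counts in all 15 libraries, and *Rps27rt* had 0 counts in all 15. *Rps27l*, at the same CDS length, had between 655 and 1151 counts. A count of 0 for *Rps27* is therefore no measure of its translation, and no ratio of *Rps27l* to *Rps27* or *Rps27rt* was formed. Zeros in this table also occur where windows are unique: *Rps12* was at 0 in all libraries although all 336 of its windows were unique. The part that the alignment rule and other steps play in these zeros was not tested. The tag itself lay outside what was counted, since no 28-base window of the counted part reaches past the last codon (3 of 192 windows of 34 bases do). The donor template used for tagging *Rps27l* carries the synonymous base change C228G, counted from the first base of the CDS, which 22 of its 192 windows cover. That of *Rps27* carries the synonymous change G243A.

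Of the 8 members, 5 passed the filter on low counts (CPM, the count scaled to a fixed library total, over 2 in at least 14 libraries) and were tested, namely *Rps27l*, *Rpl22*, *Rpl22l1*, *Rpl7l1* and *Rpl39l*. Another 2 were at 0, and *Rpl36al*, with 5 to 21 counts, passed 2 CPM in 3 libraries only and is described without a test. All 3 partners were tested. Library totals lay between 3972152 and 8064166 counts. The 10 mESC markers were all among the tested transcripts and summed to between 4116 and 5127 normalized CPM, with *Zfp42* highest. The 8 fibroblast markers summed to 11.2 to 37.2 and the 10 markers of differentiated derivatives to 23.6 to 43.5, with none of these markers at 0 in all libraries. The mESC sum was higher in the IP RPFs (4911 to 5127) than in the total RPFs of the tagged lines (4280 to 4556), and its part in the results below was not tested.

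Levels of different genes were compared as normalized CPM per kb of counted CDS, in which the library sizes were scaled by TMM (trimmed mean of M-values). *Rps27l* was a strongly translated mRNA of these cells. In WT total RPFs its levels were 765, 770.0 and 770.3 in the 3 clones. In *Rps27-FLAG* total RPFs they were 755, 823 and 813, and in *Rps27l-FLAG* total RPFs 689, 736 and 773. The 3 lines overlapped in each pair, and the mean over the 9 total RPF libraries was 766 ± 39.5 (SD, n = 9). That places *Rps27l* at rank 145 of 10082 tested transcripts with a known CDS length, above 98.6% of them. Its level was 48.9% of the median of 70 core ribosomal proteins tested. Some of these had few unique windows (22.5% in *Rpl36a*, 10.4% in *Rps18*), while all windows of *Rps27l* were unique. The median is not corrected for this, so the 48.9% may be too high.

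*Rpl22* was higher still, with 1343 ± 72.4 in the 9 total RPF libraries (SD), at 85.8% of the median core ribosomal protein, with the same limit. Its copy *Rpl22l1* had 44.2 ± 7.05, from 75 to 130 counts per total RPF library. WT clones gave 46.0, 35.4 and 44.7 for *Rpl22l1*, *Rps27-FLAG* clones 54.0, 34.7 and 41.2, and *Rps27l-FLAG* clones 41.1, 46.5 and 54.5. The lines overlapped, and replicate 2 of *Rps27-FLAG* and of WT were the lowest libraries. *Rpl7l1* had 256 ± 12.9 and its partner *Rpl7* 1980.3 ± 88.8. *Rpl39l* had 248 ± 49.3 against 621 ± 59.3 for *Rpl39*. For *Rpl39l* the clones of *Rps27l-FLAG* spread most, at 166, 247 and 348, while those of *Rps27-FLAG* lay at 260, 254 and 266 and those of WT at 202, 247 and 243. *Rps27-FLAG* thus lay above WT without overlap for *Rpl39l*, by a margin smaller than the spread within either WT or *Rps27l-FLAG*. *Rpl36al* was lowest, with 5.50 ± 3.25, and *Rpl36a* had 93.7 ± 13.1.

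From high to low, the order over the total RPF libraries was *Rpl7*, *Rpl22*, *Rps27l*, *Rpl39*, *Rpl7l1*, *Rpl39l*, *Rpl36a*, *Rpl22l1* and *Rpl36al*. The ranges of *Rps27l* (689 to 823) and *Rpl39* (529 to 731) overlapped, as did those of *Rpl7l1* (241 to 283) and *Rpl39l* (166 to 348), and the other neighbours did not overlap. Read within the same library, *Rps27l* was above *Rpl39* in 9 of 9, by 145 ± 51.5 (mean ± SD of the differences), so this pair kept its order. *Rpl7l1* was above *Rpl39l* in 5 of 9, by 8.29 ± 43.5, and these neighbours do not differ beyond their spread. The place of *Rpl36a* depends on the length used: per unique window its level was 417 ± 58.2, above *Rpl7l1* (293 ± 14.8) and *Rpl39l* (262 ± 52.1), and not between *Rpl39l* and *Rpl22l1*.

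**Figure D2:**
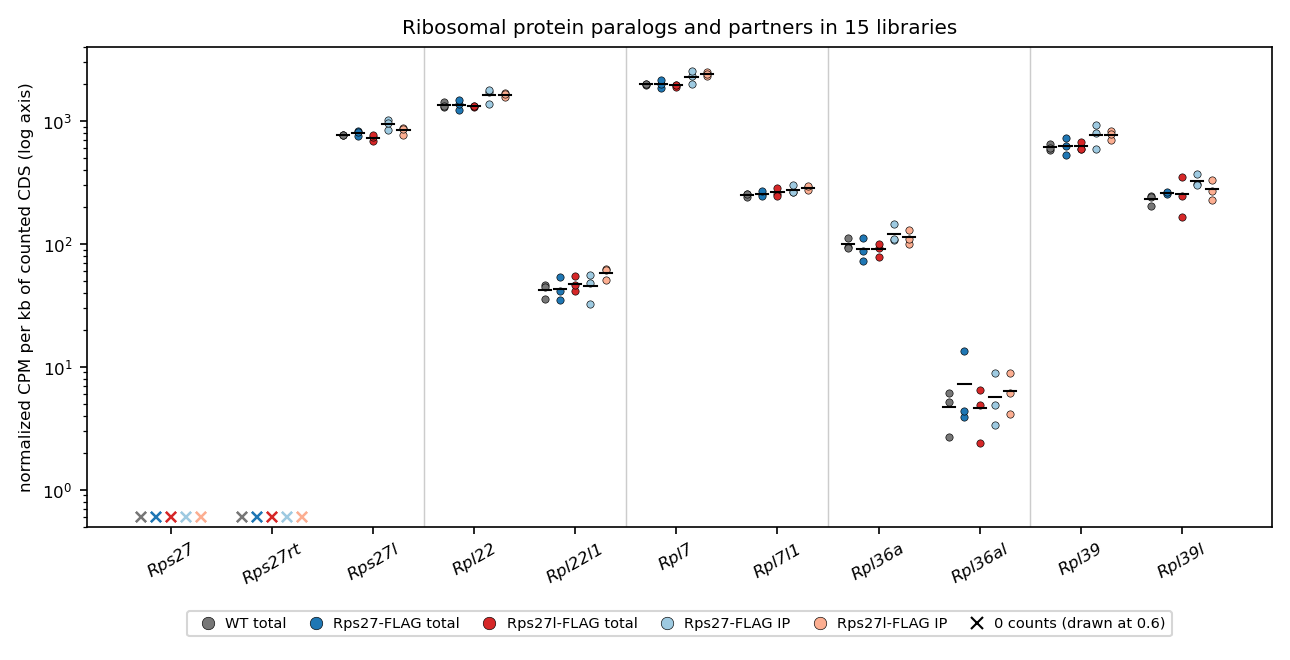
Normalized CPM per kb of counted CDS (log axis) for the 8 members and 3 partners. Each point is 1 library (1 clone), each group has 3, bars are group means, and crosses mark genes with 0 counts, which a log axis cannot show. *Rps27* and *Rps27rt* are at 0 in all libraries, and *Rps27l* lies between 689 and 1011.

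Core ribosomal proteins give the scale for these levels. Of the 32 small subunit genes listed, 30 were tested, with a median of 1634 and a range from 10.1 ± 2.66 (*Rps18*) to 2197 ± 101 (*Rps28*). Of the 46 large subunit genes 40 were tested, with a median of 1537 and a range from 13.99 ± 2.67 (*Rpl37*) to 2358 ± 94.7 (*Rpl38*). The lowest of each list had few unique windows (41 of 396 in *Rps18* and 28 of 231 in *Rpl37*). The part of this in their low levels was not tested. Among paralog genes outside the 8, *Rpl3l*, a form known from muscle, had 1.38 ± 0.434 against 1721 ± 81.1 for *Rpl3*. *Rpl10l*, a form known from testis, had 126 ± 14.8, while *Rpl10* was at 0 with none of its 582 windows unique. Of the 582 windows of *Rpl10l*, 100 came within 2 mismatches of *Rpl10*. The part of *Rpl10* reads in the level of *Rpl10l* was not tested. *Rps4l* was at 0 in all libraries and has no CDS in this annotation, and *Rps4x* had 336 ± 32.2, with 63.4% of its windows unique.

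Within a library the share of a paralog in its pair does not depend on depth or scaling. Per kb of counted CDS, *Rpl22l1* made up 3.21% ± 0.615 of the *Rpl22* pair in total RPFs (SD, n = 9), *Rpl7l1* 11.5% ± 0.545 of the *Rpl7* pair and *Rpl39l* 28.4% ± 3.64 of the *Rpl39* pair. *Rpl36al* made up 5.33% ± 2.33 of the *Rpl36a* pair, and 1.26% ± 0.583 per unique window. These shares did not separate the lines. In WT total RPFs the share of *Rpl39l* was 25.9%, 27.7% and 28.7%, in *Rps27-FLAG* 32.9%, 28.8% and 26.7%, and in *Rps27l-FLAG* 21.8%, 29.4% and 33.9%. The clones of the 3 lines overlapped, with the lowest and the highest both in *Rps27l-FLAG*. Over 4 pairs and 3 pairs of lines, the exact two-sided permutation tests of the log2 ratio gave p between 0.2 and 0.9 and adjusted p (Benjamini-Hochberg over the 4 pairs) between 0.667 and 0.9. With 3 against 3 clones the smallest p such a test can give is 0.1.

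Between IP and total RPFs of the same clone, the ratio of *Rpl7l1* to *Rpl7* was lower in the IP in 6 of 6 tagged clones. In *Rps27-FLAG* the share of *Rpl7l1* was 12.02%, 11.0% and 11.0% in total RPFs and 11.7%, 10.3% and 10.5% in IP RPFs of replicates 1 to 3. In *Rps27l-FLAG* it was 11.6%, 11.5% and 12.5% in total RPFs and 11.1%, 9.95% and 10.9% in IP RPFs. The mean change of the log2 ratio was -0.13 (SD 0.08 over clones), with p = 0.031 in the exact sign-flip test, the smallest that 6 clones can give, and an adjusted p of 0.125 over the 4 pairs. A lone pair at the smallest p can get no lower value than this after the adjustment. The adjusted test could therefore not pass for this pair and decides nothing about it. The other 3 pairs changed by -0.10 (*Rpl22l1*), -0.21 (*Rpl36al*) and -0.04 (*Rpl39l*) on average, lower in 4, 4 and 3 of 6 clones, with adjusted p from 0.375 to 0.719 in the same exact tests.

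**Figure D3:**
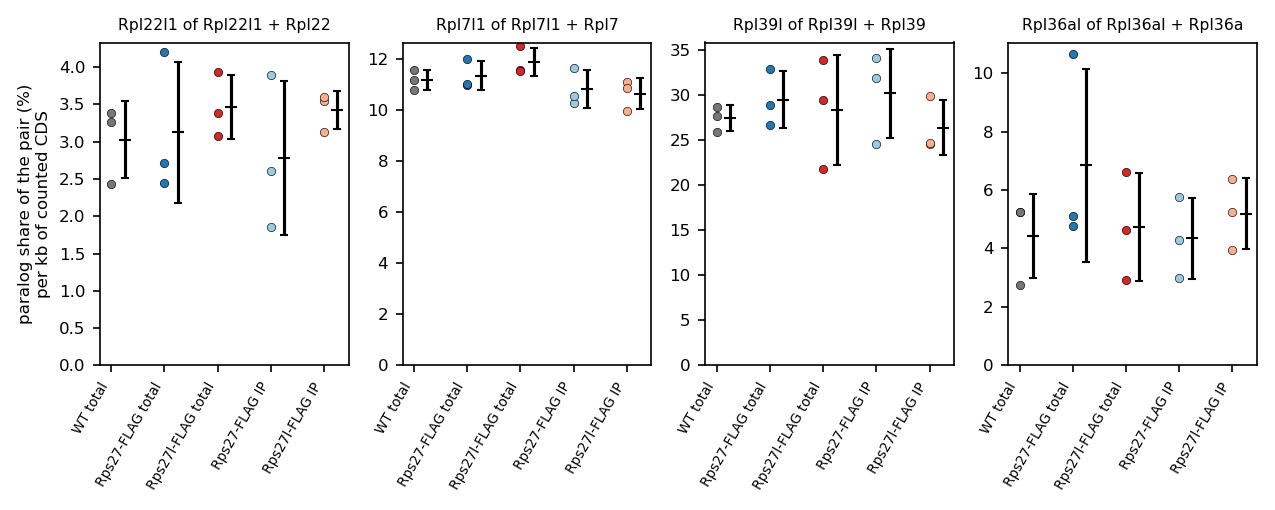
Share of the paralog in its pair, in percent of the summed normalized CPM per kb, by group (points are single libraries, bars beside them mean and SD, n = 3, linear axes from 0). *Rpl7l1* runs from 9.95% to 12.5% and *Rpl39l* from 21.8% to 34.1%, and the 5 groups overlap in the panels of *Rpl22l1*, *Rpl39l* and *Rpl36al*.

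Tagging left the total RPFs of the paralogs without a detected change. In the edgeR quasi-likelihood test of the 9 total RPF libraries, 0 of the 5 tested members passed an adjusted p of 0.05 in *Rps27-FLAG* against WT, where 0% of all 10085 transcripts passed. The same count, 0 of 5 beside 0% of all transcripts, held for *Rps27l-FLAG* against WT and for *Rps27l-FLAG* against *Rps27-FLAG*. None of the 5 reached an unadjusted p of 0.05 in any of these comparisons, in which 294, 574 and 580 of all transcripts did, and limma with voom and DESeq2 called 0 of 5 in each as well. With the replicate number as a block, which by the study's methods is also the pool in which libraries were prepared, 0.00992%, 1.43% and 1.36% of all transcripts passed in the 3 comparisons (1, 144 and 137 calls), and again 0 of the 5 members in each. *Rps27l* itself differed from WT by 0.05 ± 0.06 (log2 fold change ± SE) in *Rps27-FLAG*, where its untagged gene is read, and by -0.07 ± 0.06 in *Rps27l-FLAG*, where the gene carries the tag, with adjusted p of 1.00 and 0.844 from edgeR. The widest error was that of *Rpl39l*, at 0.17 ± 0.22 and 0.13 ± 0.22 against WT, so that a change of this size was not detectable here. Of the core ribosomal proteins, 0 of 30 and 0 of 40 passed in each comparison with WT, with medians between -0.04 and 0.02 beside medians of 0.00 over all transcripts.

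In the pulldown of Rps27-ribosomes, the level of *Rps27l* was above that in total RPFs in each clone. Total RPF levels of 755, 823 and 813 per kb in replicates 1 to 3 of *Rps27-FLAG* stood against 839, 1011 and 962 in the IP RPFs, and the groups did not overlap. By clone the log2 difference was 0.15, 0.30 and 0.24. The pulldown of Rps27l-ribosomes gave a like picture for *Rps27l*, with 689, 736 and 773 in total RPFs and 774, 873 and 868 in IP RPFs, and 0.17, 0.25 and 0.17 by clone. Every IP value stood above the total RPF values of its line, though in *Rps27l-FLAG* the lowest IP value and the highest total RPF value were nearly equal.

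The call on these differences depends on whether the clone is fitted as a block. Without it, *Rps27l* changed by 0.23 ± 0.08 in *Rps27-FLAG* (adjusted p = 0.149) and by 0.19 ± 0.08 in *Rps27l-FLAG* (adjusted p = 0.247, both edgeR), and neither passed. *Rps27l* did pass in *Rps27-FLAG* without replicate 1 (0.27 ± 0.06, edgeR, adjusted p = 0.00660), where 1818 of all 10085 transcripts passed. With the clone as a block the changes were 0.23 ± 0.04 (adjusted p = 7.34e-09) and 0.19 ± 0.04 (adjusted p = 6.63e-05). The CDS of *Rps27l* is among the short ones, as 0.992% of tested CDSs are shorter. The trend of IP against total RPFs along CDS length is not given here, but it was removed in a further fit. That fit also shifts whole libraries, as the processing section describes. With the length trend of each library removed and the block kept, the change of *Rps27l* was -0.01 ± 0.04 (adjusted p = 0.867) and 0.02 ± 0.04 (adjusted p = 0.812), so the call ends. The part of CDS length in this was not tested.

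The other tested members also had estimates above 0 in both lines. In *Rps27-FLAG*, 0 of the 5 tested members passed in edgeR without the block, where 5.68% of all transcripts did. There 3 of 5 had an unadjusted p under 0.05, and limma with voom and DESeq2 called 0 of 5. When replicate 1 was left out 2 of 5 (*Rps27l* and *Rpl22*) passed, beside 1818 of all 10085 transcripts. With the block 4 of 5 passed, all higher in the IP RPFs, where 41.2% of all transcripts passed. In *Rps27l-FLAG* 1 of 5 passed without the block, beside 3.10% of all transcripts, and 3 of 5 with it, all higher, beside 31.0%. With the block and the length trend removed, the counts were 0 of 5 (beside 29.7%) and 1 of 5 (beside 22.9%). *Rpl22* was the member called in *Rps27l-FLAG* without the block. Its levels rose from 1291, 1328 and 1330 in total RPFs to 1566, 1689 and 1650 in IP RPFs, without overlap, by 0.31 ± 0.05 (edgeR, adjusted p = 0.0189). That call was lost without replicate 1 (adjusted p = 0.153), without replicate 2 (adjusted p = 0.382) and with the length trend removed but no block (adjusted p = 0.233), and with both block and length correction *Rpl22* was at 0.18 ± 0.03 (adjusted p = 2.22e-05). In *Rps27-FLAG* its change was 0.26 ± 0.11 (adjusted p = 0.219), and 0.25 ± 0.03 with the block (adjusted p = 1.66e-15). By clone it was 0.17, 0.32 and 0.28. The p with the block draws on a spread estimated with all tested transcripts, not on these clones alone.

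*Rpl7l1* changed least among the members called with the block. Its change was 0.10 ± 0.04 in *Rps27-FLAG* (adjusted p = 0.0112) and 0.14 ± 0.04 in *Rps27l-FLAG* (adjusted p = 0.00240), both edgeR with the block. Without the block it was at 0.11 ± 0.07 (adjusted p = 0.433) and 0.13 ± 0.07 (adjusted p = 0.408). Its partner *Rpl7* was at 0.19 ± 0.10 (adjusted p = 0.314) and, past the threshold, at 0.31 ± 0.05 (adjusted p = 0.0172) in *Rps27-FLAG* and *Rps27l-FLAG* without the block. The call on *Rpl7* in *Rps27l-FLAG* was lost without replicate 1 (adjusted p = 0.132), without replicate 2 (adjusted p = 0.365) and with the length trend removed but no block (adjusted p = 0.135). With the block and the length trend removed *Rpl7* was at 0.11 ± 0.05 in *Rps27-FLAG* (adjusted p = 0.0575) and at 0.29 ± 0.04 in *Rps27l-FLAG* (adjusted p = 8.09e-09). In the same fit *Rpl7l1* was at 0.01 ± 0.04 (adjusted p = 0.888) and 0.10 ± 0.04 (adjusted p = 0.0554).

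*Rpl39l* was called with the block in *Rps27-FLAG* alone, at 0.33 ± 0.09 (adjusted p = 0.00116), against 0.33 ± 0.12 (adjusted p = 0.149) without it and 0.04 ± 0.09 (adjusted p = 0.784) with the block and the length trend removed. Its levels there were 307, 370.5 and 301 in IP RPFs, above all total RPF values of that line. In *Rps27l-FLAG* the IP values were 227, 272 and 334 and overlapped the total RPF values. The change there was 0.15 ± 0.10 with the block (adjusted p = 0.263), and the clones gave 0.46, 0.14 and -0.06. Its partner *Rpl39* rose by 0.28 ± 0.06 in *Rps27-FLAG* (adjusted p = 1.25e-05) and by 0.31 ± 0.06 in *Rps27l-FLAG* (adjusted p = 4.20e-05) with the block, and passed in neither without it (adjusted p of 0.378 and 0.148). It passed in *Rps27-FLAG* without replicate 1 (adjusted p = 0.0331), and with the block and the length trend removed it was at -0.01 ± 0.06 (adjusted p = 0.925) and 0.09 ± 0.06 (adjusted p = 0.353).

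*Rpl22l1* did not pass with or without the block, with changes of 0.06 ± 0.13 in *Rps27-FLAG* (adjusted p = 0.754) and 0.30 ± 0.12 in *Rps27l-FLAG* (adjusted p = 0.0521) with the block. The clones of *Rps27-FLAG* gave 0.05, -0.09 and 0.22 and those of *Rps27l-FLAG* 0.30, 0.42 and 0.18. *Rpl36al* had 6, 7 and 10 counts in IP RPFs of *Rps27-FLAG* against 8, 8 and 21 in total RPFs, and 6, 7 and 9 against 13, 5 and 8 in *Rps27l-FLAG*. The groups overlapped, and a change was not detectable at this depth. Its partner *Rpl36a* was at 0.41 ± 0.19 (adjusted p = 0.241) in *Rps27-FLAG* and 0.32 ± 0.14 (adjusted p = 0.312) in *Rps27l-FLAG*, and rose by 0.43 ± 0.09 (adjusted p = 2.26e-05) and 0.31 ± 0.10 (adjusted p = 0.00916) with the block. With the length trend removed as well it was at 0.21 ± 0.09 (adjusted p = 0.0688) and 0.16 ± 0.10 (adjusted p = 0.260), so that both calls end.

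**Figure D4:**
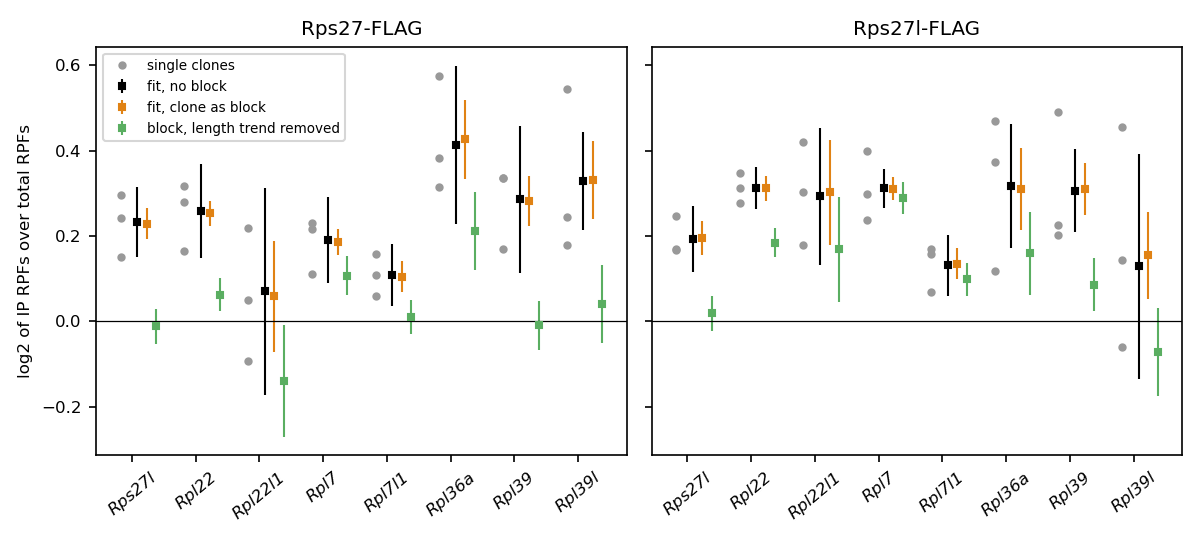
Log2 of IP RPFs over total RPFs for the 5 tested members and 3 partners in each tagged line. Grey points are single clones, squares are edgeR estimates with their SE, without the clone as a block (black), with it (orange) and with it after the CDS length trend was removed (green). The estimates of *Rps27l* move from 0.23 and 0.19 to -0.01 and 0.02 in the fit with the length trend removed. That fit also shifts whole libraries, so the move cannot be credited to length alone.

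The medians of the core ribosomal proteins lay above 0 in both pulldowns, as those of the tested paralogs did. In *Rps27-FLAG* 0 of 30 small subunit and 0 of 40 large subunit genes passed in edgeR without the block, beside 5.68% of all transcripts (11 and 5 at an unadjusted p under 0.05, and 0 and 0 in limma with voom and in DESeq2). The medians were 0.22 and 0.20 beside -0.01 over all transcripts. Without replicate 1 of this line 23 of 30 and 25 of 40 passed, all higher, beside 1818 of all 10085 transcripts. With the block 26 of 30 (25 higher, 1 lower) and 31 of 40 (29 higher, 2 lower) passed, beside 41.2% of all transcripts. The largest rises were those of *Rps29* (0.31 ± 0.03) and *Rpl36a*, and the largest falls those of *Rack1* (-0.11 ± 0.03) and *Rpl5* (-0.12 ± 0.03). In *Rps27l-FLAG* 17 of 30 and 22 of 40 passed without the block, all higher, beside 3.10% of all transcripts. The medians were 0.31 and 0.31 beside -0.03 over all transcripts, and *Rps28* (0.39 ± 0.06) and *Rpl30* (0.37 ± 0.08) led. These counts fell to 0 of 30 and 0 of 40 without replicate 1, without replicate 2, or with the length trend removed but no block. With the block 27 of 30 and 32 of 40 passed, beside 31.0% of all transcripts, led by *Rps15a* (0.44 ± 0.16) and *Rplp2* (0.40 ± 0.15). With the length trend removed and the block kept, 4 of 30 and 6 of 40 passed in *Rps27-FLAG*, beside 29.7% of all transcripts. In the *Rps27l-FLAG* line 25 of 30 and 28 of 40 passed, beside 22.9%. Over the 5 tested paralogs the median change was 0.23 in the *Rps27-FLAG* line and 0.19 in the *Rps27l-FLAG* line.

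The question of whether Rps27- and Rps27l-ribosomes differ in the paralog mRNAs they carry was tested as the difference of the IP effect between the tagged lines, in a fit of 12 libraries with the clones as blocks. None of the 5 tested members passed (0 of 5, beside 1.50% of all transcripts), none had an unadjusted p under 0.05, and limma with voom and DESeq2 called none either. The difference for *Rps27l*, coded as *Rps27l-FLAG* minus *Rps27-FLAG*, was -0.03 ± 0.05 (edgeR, adjusted p = 0.878). It was 0.06 ± 0.04 for *Rpl22* (adjusted p = 0.629), 0.24 ± 0.18 for *Rpl22l1* (adjusted p = 0.642), 0.03 ± 0.05 for *Rpl7l1* (adjusted p = 0.880) and -0.18 ± 0.14 for *Rpl39l* (adjusted p = 0.674). The partner *Rpl7* was at 0.13 ± 0.04 (adjusted p = 0.0767), and at 0.18 ± 0.05 (adjusted p = 0.0474) with the length trend removed, where 1.40% of all transcripts passed. Among core ribosomal proteins 1 of 30 and 4 of 40 passed, all with the larger effect in *Rps27l-FLAG*, among them *Rack1* (0.20 ± 0.04) and *Rpl24* (0.21 ± 0.06), with medians of 0.09 and 0.10 beside 0.00 over all transcripts. With the length trend removed these counts were 5 of 30 and 9 of 40. That fit also shifted whole libraries, as the processing section describes. Its changes, that of *Rpl7* included, can therefore not be credited to length alone.

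Finally, the pattern of each tested member over the 9 total RPF libraries was set against 10084 other transcripts by Pearson's correlation of log2 normalized CPM. These values are descriptions over 9 libraries that share batches and scaling. The nearest transcripts were picked as the highest of 10084 values, and that choice alone can give a high r. Whether any r below exceeds chance was not tested. Among the transcripts most like *Rps27l* was *Xpnpep1* (r = 0.942). Those most like *Rpl22* were *Rpl38* (r = 0.976) and *Rpl36* (r = 0.933), both large subunit proteins. *Rpl22l1* was nearest to *Mafg* (r = 0.935) and *Hid1* (r = 0.929), *Rpl7l1* to *Plekha8* (r = 0.959) and *Isoc2a* (r = 0.938), and *Rpl39l* to *Tmem87b* (r = 0.965) and *Traip* (r = 0.955). No partner was among the nearest transcripts, and the ranks of partners differed by pair. *Rpl22* and *Rpl22l1* had r = -0.649, with *Rpl22l1* at rank 9019 of 10084 for *Rpl22*. *Rpl7* was at rank 1718 for *Rpl7l1* (r = 0.358) and *Rpl39* at rank 1891 for *Rpl39l* (r = 0.431). *Rps27l* varied little between clones, with an SD of 0.08 on the log2 scale over the 9 libraries. The median over all tested transcripts was 0.16, and *Rpl39l* (0.28) and *Rpl22l1* (0.22) varied more. Their counts differ too, with 655 to 1151 over all 15 libraries for *Rps27l*, 113 to 206 for *Rpl39l* and 55 to 130 for *Rpl22l1*. Low counts raise such an SD by themselves, and their part in it was not tested.

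Features of the CDS that the choice of symbols did not use were also compared. All 8 have short CDSs, from 153 bases in *Rpl39l* to 738 in *Rpl7l1*, against a median of 1440 for tested transcripts. The partners are short as well, from 153 bases in *Rpl39* to 810 in *Rpl7*. The share of G or C at the last base of codons, 60.2% at the median of tested transcripts, was 58.3% in *Rps27* and 47.6% in *Rps27l*, where 19.0% of them lie lower. It was 64.8% in *Rpl22* and 41.8% in *Rpl22l1*. In the pairs *Rpl39* and *Rpl39l* (58.8% and 54.9%), *Rpl7* and *Rpl7l1* (58.5% in both) and *Rpl36a* and *Rpl36al* (64.2% and 65.1%) the values were closer.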

How the data were processed

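The deposited values are counts of RPFs per transcript, without normalization, in 15 libraries of mouse embryonic stem cells, and all 15 columns were used (0 left out). Per the labels and methods, the authors used cutadapt 2.4, UMI-tools 1.0.1 and Bowtie2 2.3.4.3 against transcripts of GRCm38, removed duplicates by molecular identifier, kept uniquely aligned reads and counted A sites within each CDS short of its ends. GENCODE M21 had an entry for 21713 of 21727 transcripts; another release served the authors, so CDS bounds may differ.

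Here 13 mitochondrially encoded transcripts were dropped and 10085 with CPM over 2 in at least 14 libraries were tested with edgeR 4.0.16 in R 4.3.3 (quasi-likelihood F-test, Benjamini-Hochberg, threshold 0.05; TMM for IP and total libraries separately; SE derived from the F statistic). IP and total libraries of a replicate are from 1 clone and deviated together from their group means (r from 0.483 to 0.798 in 6 clones), so the clone serves as a block where printed. Libraries of 1 replicate number were pooled for preparation per the methods, and same-numbered clones of different lines correlated at a median of 0.451 (lowest -0.167), so the number serves as a block in total RPFs. Replicates of a group differed by more than sampling noise (chi-square per degree of freedom 1.78 to 10.3). In simulated data 82.5% of 200 transcripts with a log2 fold change of 1 were recovered in *Rps27-FLAG* against WT total RPFs (8 false calls), 80.5% in IP against total RPFs of *Rps27-FLAG* (8 false calls) and 90.5% in the difference between lines (6 false calls).

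Log2 ratios of pairs had 0.5 added to each count, and differences of single clones likewise. Sequences were read from GENCODE M21 and, for starts, RefSeq. Named genes are the members, their partners, further paralogs, the extremes of the core ribosomal protein lists and the 2 transcripts nearest in pattern to each tested member; *Rps12* was added after its values were seen, and 1 transcript that the rule names is not reported here. The members and lists were chosen with earlier results of these data known. Alternatives were voom and limma 3.58.1, DESeq2 1.42.0, edgeR with the size factors of DESeq2, a joint TMM of IP and total libraries, other filters, the length trend removed by loess (span 0.5), the block, and each replicate left out. The loess trend was fitted to CPM without TMM, and the TMM factors were applied as well, so those fits also shift whole libraries. In total RPFs of *Rps27l-FLAG* against WT the median over all transcripts was -0.0305 with the trend removed and 0.0026 in the main fit. The shift in IP against total RPFs is not given here, so calls that end in those fits cannot be credited to length alone. Figures used Python 3.11.15 and matplotlib 3.10.9. Nothing says that the clones of a line were cultured on separate days, so p-values without a block measure the spread between clones. With the clone as a block they measure the spread of the IP minus total difference. The edgeR estimate of spread borrows from all tested transcripts, so a small p does not rest on the clones of 1 transcript alone.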

Additional observations from a re-analysis of the deposited data

How the results depend on the processing

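Among the 6 comparisons, the count of tested paralogs called stayed the same in 83 alternative settings and changed in 6. All 6 changes were in IP against total RPFs. Most of the 83 belong to the other comparisons, where no setting called a member, so the tally does not show that the IP counts are stable. In *Rps27-FLAG* IP against total RPFs it was 0 of 5, 4 with the replicate block and 0 to 2 when 1 replicate was left out (2 without replicate 1). In *Rps27l-FLAG* it was 1, 3 with the replicate block, 0 with the CDS length trend removed and 0 to 1 when 1 replicate was left out (0 without replicate 1 or 2). With the replicate block and the length trend removed the counts were 0 and 1. In total RPFs the replicate block changed no call of a member, and none passed in the difference between the lines with or without it. The cause of these changes was not tested. Levels per kb moved by more than 1 SD in 16 of the changes of length or scaling, most for *Rpl36a* (417 per unique window against 93.7). Depth limits *Rpl36al* (5 to 21 counts) and *Rpl22l1* (55 to 130). Over all transcripts, calls in IP against total RPFs went from 573 to 4158 with the block, 1 with the length trend removed and 0 to 1818 with 1 replicate left out (1818 without replicate 1, 0 without replicate 2 or 3) in *Rps27-FLAG*, and from 313 to 3125, 5 and 0 to 319 (0 without replicate 1 or 2) in *Rps27l-FLAG*. For the difference between the lines they went from 151 to 23 in DESeq2, 0 with no replicate block and 86 to 149 with 1 replicate left out (86 without *Rps27-FLAG* replicate 3). In total RPFs the block gave 1, 144 and 137 calls in place of 0.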
